A study of Mus musculus and Rattus norvegicus with 30 samples.

Results

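Interferon-stimulated genes (ISGs) are the genes that cells switch on when interferons, the cytokines of antiviral defence, bind their receptors. The ISGs described here are 35 genes taken from a list of well-known members by their symbol in the deposited tables. All 35 had a row among the 54315 features of the mouse count table, and 32 had a row among the 39281 features of the rat table. Their RNA was measured in the dorsal root ganglia (DRG), in which the cell bodies of sensory neurons lie. In mice, spared nerve injury (SNI), a cut of some branches of the sciatic nerve that leaves another branch intact, was compared with sham surgery 28 days later in the L3 and L4 DRG. In rats, spinal nerve transection (SNT) was compared with sham surgery 21 days later in the L5 DRG.

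The mouse groups were BALB/c sham with 3 males and 3 females, BALB/c SNI with 2 males and 2 females, B10.D2 sham with 3 males and 2 females, and B10.D2 SNI with 2 males and 3 females. The mice were adult. Each mouse library held the RNA of 1 animal, depleted of ribosomal RNA. The rat groups were 4 sham and 4 SNT libraries of male Wistar rats, each a pool of 3 animals, made from poly-A RNA. No transgene was used. Of the labelled mouse samples, BALB/c SNI 66 and B10.D2 sham 59 were not analysed here, as the count table holds no values for them. The authors left both out for poorer read mapping and a higher Cook's distance, a measure of outlying counts. A mouse library carries its sample number from the labels as its name, and the rat libraries of a group are called 1 to 4.

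In the type I response, the receptor IFNAR passes its signal through the kinases JAK1 and TYK2 to transcription factors, STAT2 and IRF9 among them, that bind the interferon-stimulated response element (ISRE) of target genes. Interferon gamma acts through JAK1 and JAK2 and the gamma-activated site (GAS). The products of these genes sense foreign nucleic acids, block viral entry, translation and budding, or feed back on the pathway itself, and a low level of many ISGs is kept up in uninfected tissue. Sensory neurons, satellite glia and macrophages of the DRG can all respond to interferon.

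The members fall into groups by role. The transcription factors are Stat2, Irf1, Irf7 and Irf9. The sensors are Ifih1 (MDA5) and Ddx58 (RIG-I), which detect viral RNA, Dhx58 (LGP2), which modulates them, and Zbp1, which binds Z-form nucleic acids. The IFIT and IFITM effectors are Ifit1, Ifit2 and Ifit3, which act on viral RNA and its translation, and Ifitm3, which hinders membrane fusion. The OAS family, Oas1a, Oas2, Oas3 and Oasl2, and the kinase PKR (Eif2ak2) respond to double-stranded RNA. The GTPases are Mx1, Mx2, Gbp2, Gbp3, Gbp4 and Gbp7, of which Mx2 is annotated in mouse as a polymorphic pseudogene. Isg15 is a ubiquitin-like protein, Usp18 removes it and dampens receptor signalling, and Trim25 is a ligase of the RIG-I pathway. The remaining members are Ifi27, Ifi35, Ifi44, Rsad2 (viperin), the tethering protein Bst2, Xaf1, the ADP-ribosyltransferase Parp14, the chaperone Rtp4 and the secreted glycoprotein Lgals3bp. On mm10 they lie on 14 chromosomes, with 6 members on chromosome 11, 5 on chromosome 5, and Ifit1, Ifit2 and Ifit3 side by side on chromosome 19.

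Promoters from RefSeq on GRCm38.p6, from 250 bases before to 50 bases after a start site, were matched by symbol for 25 of the 35 members. The ISRE core searched for was GAAA, any 2 bases and GAAA on either strand, which reads TTTC, any 2 bases and TTTC on the other strand. It was found in 15 of the 25 matched members (60%), against 3.99% of 27025 genes of the same table. The GAS letters, TTC, any 3 bases and GAA, which read the same on both strands and can overlap an ISRE core, were found in 8 of the 25 (32%), against 9.55% of those genes. Both were found in 5 members. A match is a description of the letters and not of binding. Dhx58, Gbp4, Ifi27, Mx1, Mx2, Oas2, Parp14, Rtp4, Usp18 and Zbp1 were not matched. Of the 20 members called higher in B10.D2 than in BALB/c after SNI, 15 had a promoter in the table and 10 of these held an ISRE core. It lay wholly before the start site in 7, whose windows are shown, and reached or followed it in Ddx58, Eif2ak2 and Ifih1. Ifit2, Irf7, Irf9, Lgals3bp and Oasl2 were called and had no match. Isg15, called in no comparison, stands beside the 7. Capitals mark the matched cores, and each window is printed 5′ to 3′ on the strand of its gene.
Ifit3, chr19:34583365-34583424, plus strand: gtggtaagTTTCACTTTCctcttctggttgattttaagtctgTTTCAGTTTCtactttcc
Ifit1, chr19:34640770-34640829, plus strand: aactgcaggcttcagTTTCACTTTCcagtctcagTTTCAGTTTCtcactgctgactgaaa
Bst2, chr8:71537565-71537624, minus strand: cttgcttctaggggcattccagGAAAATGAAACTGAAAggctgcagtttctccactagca
Oas1a, chr5:120907526-120907585, minus strand: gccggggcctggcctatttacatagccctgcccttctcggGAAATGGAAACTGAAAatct
Gbp7, chr3:142530258-142530317, plus strand: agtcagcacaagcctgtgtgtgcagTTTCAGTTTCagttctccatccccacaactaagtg
Gbp2, chr3:142620579-142620638, plus strand: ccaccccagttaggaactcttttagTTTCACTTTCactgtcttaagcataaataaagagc
Gbp3, chr3:142559977-142560036, plus strand: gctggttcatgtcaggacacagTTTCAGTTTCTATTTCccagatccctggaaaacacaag
Isg15, chr4:156200856-156200915, minus strand: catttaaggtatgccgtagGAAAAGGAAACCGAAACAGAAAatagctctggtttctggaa
Ifit3, Ifit1, Bst2, Oas1a and Gbp3 each held 2 core matches in these windows, Gbp7 and Gbp2 held 1 each and Isg15 held 3.

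Each mouse library held between 29.99 and 41.88 M counts (M for mega) and each rat library between 11.95 and 17.89 M, and no pair of libraries was identical. Sensory neuron markers summed to 5352 to 6752 counts per M (CPM) in every mouse library and to 3592 to 6410 CPM in rat. Of 8 such markers 2 fell after SNI in each strain, the heavy neurofilament Nefh among them (-0.70 ± 0.08 in BALB/c and -0.50 ± 0.08 in B10.D2 on the log2 scale). In rat 2 of 4 fell after SNT, the sodium channel gene Scn10a from a mean of 631 to 136 CPM and Isl1 from 112 to 52.6 CPM, while Prph, which made up most of the rat sum, had means of 4444 and 4578 CPM. The part of these neuron genes in the members' values was not tested. All 14 injury markers tested rose in BALB/c, 13 of 14 rose in B10.D2 and 9 of 10 rose in rat. Their mean log2(CPM + 1) separated sham from SNI in both strains, with B10.D2 SNI 76 lowest of the injured mice at 4.21 against 5.15 to 5.41 in the other 4 of its group. BALB/c SNI libraries had 5.58 to 5.83, above every B10.D2 SNI library. After SNI 0 of the 14 markers had a positive log2 difference of B10.D2 from BALB/c, with a median of -0.54. Rat sham 4 stood apart at 5.44, against 4.05 to 4.23 in the other sham libraries and 5.91 to 6.46 after SNT. Among rows of the rat counts, 17036 (43.4%) were listed at 0 in every library, among them Actb, which every cell uses. Of the members, 14 were listed at 0 in all 8 rat libraries. In bulk ganglia, fewer cells of a type and less RNA per cell cannot be told apart.

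The mean log2(CPM + 1) over the 35 members was 3.60 ± 0.23 (SD, n = 6) in BALB/c sham, 3.75 ± 0.085 (SD, n = 4) in BALB/c SNI, 3.87 ± 0.18 (SD, n = 5) in B10.D2 sham and 4.23 ± 0.22 (SD, n = 5) in B10.D2 SNI. BALB/c sham libraries ran from 3.28 (library 51) through a median of 3.55 to 3.88 (library 56), and BALB/c SNI libraries 49, 64, 65 and 70 gave 3.68, 3.68, 3.86 and 3.78. All 4 injured BALB/c libraries therefore lay inside the range of their sham group. B10.D2 sham libraries 58, 60, 67, 77 and 88 gave 3.68, 3.75, 4.12, 3.96 and 3.82, and B10.D2 SNI libraries 69, 76, 78, 89 and 90 gave 4.49, 4.005, 4.16, 4.05 and 4.43. Every B10.D2 SNI library was above every BALB/c library, while B10.D2 SNI 76 and 89 lay below B10.D2 sham 67. B10.D2 SNI 69 and 90 were both above the other 3 libraries of their group in 27 of the 35 members. The difference of SNI from sham on this scale was 0.15 for BALB/c mice and 0.36 for B10.D2 mice, and the difference of B10.D2 from BALB/c was 0.26 in sham and 0.48 in SNI. These differences were not adjusted for sex, whose share differs between the groups, and no test is given for this mean.

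**Figure D1:**
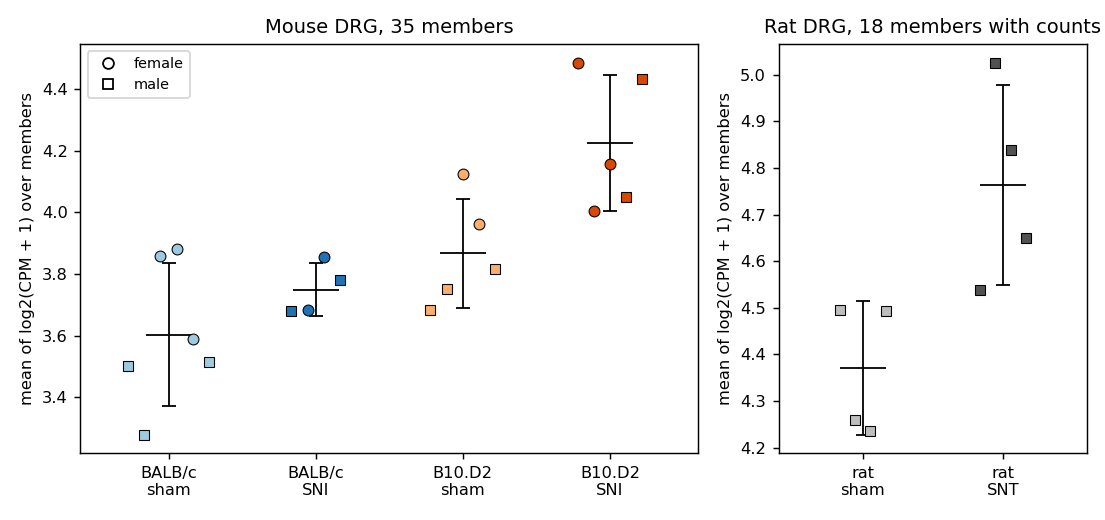
Each point is 1 library, plotted as the mean of log2(CPM + 1) over the 35 mouse members (left) and over the 18 rat members with counts (right), with circles for females and squares for males and the bar showing the group mean ± SD. The 5 B10.D2 SNI libraries lie above all 10 BALB/c libraries, and the 4 BALB/c SNI libraries lie within the range of BALB/c sham.

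In BALB/c mice Parp14 alone rose after SNI, by 0.38 ± 0.11 on the log2 scale, and no member fell. The count of 1 of 35 members called higher (adjusted p under 0.05) stands beside 4.82% of all 24685 features tested, and the count of 0 called lower beside 4.87%. DESeq2 called 3 members, all higher, and 8 members (22.9%) had an unadjusted p under 0.05 by edgeR, against 23.2% of all features. By these counts the members were near the background of this comparison. The median log2 fold change was 0.15 over the members and 0.003 over all features, and 27 of 35 members had a positive value.

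Parp14 had 29.1, 32.9 and 40.2 CPM as the lowest, median and highest value in BALB/c sham, and 36.6, 44.7, 49.4 and 43.5 CPM in BALB/c SNI 49, 64, 65 and 70. Only library 49 lay within the sham range, and the adjusted p was 0.0281 (edgeR quasi-likelihood test, Benjamini-Hochberg adjustment, which also gave the adjusted p-values that follow). Ifitm3 had 18.4, 18.8 and 19.9 CPM as lowest, median and highest in sham and 21.6, 21.9, 25.4 and 24.9 CPM after SNI. It was the 1 member whose groups did not overlap, beside 4.3% of all features in this direction, but its log2 fold change of 0.31 ± 0.10 had an adjusted p of 0.0547. Xaf1, a pro-apoptotic binding partner of XIAP, had 9.67, 10.8 and 13.1 CPM as lowest, median and highest in sham and 13.1, 13.2, 13.5 and 13.8 CPM after SNI. Sham 56 alone reached the injured libraries, and the log2 fold change of 0.29 ± 0.10 had an adjusted p of 0.0612.

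The members with a negative value after SNI in BALB/c were Dhx58, Eif2ak2, Oasl2, Usp18, Lgals3bp, Ifit1, Stat2 and Oas1a, and none of them was called. The largest negative value was that of Ifit1, at -0.54 ± 0.32 with an adjusted p of 0.345. Sham 56 held 46.7 CPM of Ifit1, against 7.27 to 21.2 CPM in the other sham libraries and 9.73 to 13.3 CPM after SNI. Parp14 lost its call without sham 51, 56 or 57 or without SNI 64, 65 or 70, with an adjusted p of up to 0.103, and the count of called members was 0 without sham 51 or 57 or SNI 64, 65 or 70. It was 2 without B10.D2 sham 58 or SNI 90, 3 without B10.D2 SNI 76 and 4 without B10.D2 SNI 69. Macrophage markers moved with the same contrast: 4 of 10 rose, and their summed level was 128.8 to 311.7 CPM in sham and 255.9 to 375 CPM after SNI. Their part in the members' values was not tested.

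In B10.D2 mice, 8 of 35 members rose after SNI and none fell, beside 2.1% of all features called higher and 2.48% called lower. The 8 were the transcription factors Irf1 and Irf9, the sensor Ifih1, the effector Ifitm3, the GTPases Gbp2 and Gbp3, and Xaf1 and Parp14. All 35 members had a positive log2 fold change, with a median of 0.36 against 0.008 over all features. None of the 5 members of the OAS family and PKR and none of the 3 of ISG15 conjugation was called. Without overlap between groups were Irf1, Ifitm3 and Gbp2, 3 of 35 members beside 2.41% of all features.

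Gbp2, an interferon-gamma-inducible GTPase that coats the membranes of intracellular pathogens, had 18.5, 21.4, 25.2, 23.1 and 22.8 CPM in B10.D2 sham 58, 60, 67, 77 and 88, and 80.4, 30.4, 28.8, 28.7 and 54.6 CPM in B10.D2 SNI 69, 76, 78, 89 and 90. The injured libraries were all higher, with SNI 69 and 90 far above the other 3, and the log2 fold change was 0.96 ± 0.21 with an adjusted p of 0.0106. Its neighbour Gbp3 on chromosome 3 had 12.9, 16.0, 21.1, 19.4 and 16.3 CPM in sham and 40.3, 20.2, 22.8, 22.9 and 36.3 CPM after SNI, in the same order of libraries. SNI 76 fell inside the sham range, and the log2 fold change was 0.71 ± 0.18 with an adjusted p of 0.0257. GBP genes are close paralogs, and reads that fit several of them are counted with less certainty.

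Ifitm3 had 16.3, 19.2, 19.8, 22.5 and 18.5 CPM in B10.D2 sham and 35.8, 23.4, 26.6, 24.4 and 31.4 CPM after SNI. It rose by 0.54 ± 0.10 on the log2 scale with the smallest adjusted p of the members in this strain, 0.00171. Parp14 had 40.9, 46.7, 57.5, 50.6 and 40.9 CPM in sham and 82.5, 55.4, 65.2, 52.6 and 71.9 CPM after SNI. SNI 76 and 89 lay below sham 67, and the rise was 0.44 ± 0.11 with an adjusted p of 0.0188. Parp14 overlaps another annotated gene on its own strand, so that some of its reads may not have been counted.

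Irf1, a transcription factor that answers chiefly to interferon gamma, had 23.2, 20.9, 23.6, 21.8 and 23.0 CPM in B10.D2 sham and 34.9, 26.8, 24.9, 24.8 and 35.9 CPM after SNI, a rise of 0.40 ± 0.11 with an adjusted p of 0.0351. Ifih1 had 19.1, 19.2, 25.7, 24.7 and 23.8 CPM in sham and 36.1, 27.8, 28.6, 25.5 and 30.1 CPM after SNI, and rose by 0.36 ± 0.09 with an adjusted p of 0.0336. SNI 89 alone was below sham 67 for Ifih1, and no library overlapped for Irf1. Xaf1 rose by 0.35 ± 0.09 (adjusted p 0.0345) and Irf9 by 0.26 ± 0.07 (adjusted p 0.038). Among the members not called, Gbp4 had a log2 fold change of 0.69 ± 0.20 (adjusted p 0.055), Irf7 0.64 ± 0.20 (0.0804) and Bst2 0.59 ± 0.20 (0.0997).

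The number of calls in B10.D2 rested on few libraries. It was 1 without SNI 90, 2 without SNI 69 or without sham 58, 3 without sham 60 or sham 77, and 10 without SNI 76. Ifitm3 stayed called when any 1 library was left out, at an adjusted p of at most 0.0114, and was the only member called without SNI 69 and 90 together. Gbp2 lost its call without SNI 90 (adjusted p 0.062), Parp14 without SNI 69, SNI 90 or sham 58, and Gbp3 without those or sham 60 or 77. Irf1, Ifih1, Xaf1 and Irf9 lost theirs without SNI 69, SNI 90 or any of sham 58, 60, 67 and 77, and some of these 4 without sham 88, SNI 78 or 89 or BALB/c SNI 64 or 65 as well. Without SNI 69 and 90 together the log2 fold change was 0.35 for Gbp2 and 0.31 for Gbp3. These libraries were left out for their high values, so that lower values and fewer calls follow in part from the choice. Of 10 macrophage markers 0 were called in this contrast by edgeR, with 7 at an unadjusted p under 0.05, and their summed level was 230.8 to 270.9 CPM in sham and 238.1 to 406.3 CPM after SNI, highest in SNI 69. Their part in the members' values was not tested.

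**Figure D2:**
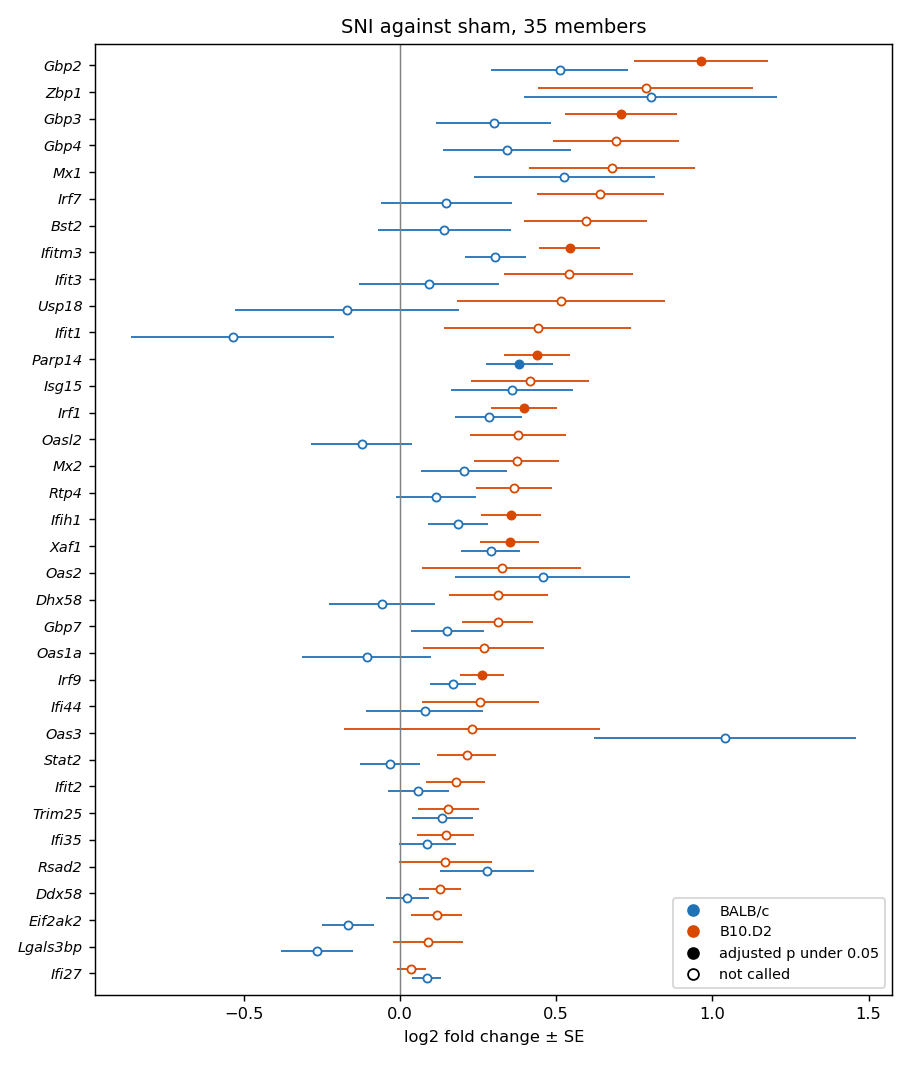
Log2 fold change of SNI against sham with its standard error for each of the 35 members in BALB/c (blue) and B10.D2 (orange), with filled points where the adjusted p was under 0.05. All 35 B10.D2 values are above 0, 8 of them filled, and 27 BALB/c values are above 0, with Parp14 filled.

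The test of the difference in response between the strains, the interaction of strain and surgery, called no member by edgeR and none by DESeq2, with 4 members (11.4%) at an unadjusted p under 0.05, against 4.35% of all features. Of all features, 0% were called with a larger response in B10.D2 and 0.0243% with a smaller one. Of 14 injury markers 1 was called, with a smaller response in B10.D2, and their median difference was -0.40. The part of the injury-marker level in the members' differences was not tested. The response was larger in B10.D2 for 30 of 35 members, the exceptions being Rsad2, Zbp1, Oas3, Oas2 and Ifi27, with a median difference of 0.17 on the log2 scale against 0.0007 over all features. The members with the smallest p were Eif2ak2, Oasl2 and Ifit1. The difference and its 95% interval were 0.28 (0.03 to 0.54) for Eif2ak2, 0.50 (0.02 to 0.98) for Oasl2 and 0.98 (0.03 to 1.92) for Ifit1, each with an adjusted p of 1. Eif2ak2, the kinase that halts translation on double-stranded RNA, had 50.9, 52.7 and 64.5 CPM as lowest, median and highest in BALB/c sham and 45.1, 44.2, 50.2 and 54.1 CPM after SNI. In B10.D2 it had 54.3, 48.0, 54.9, 53.8 and 63.2 CPM in sham and 53.8, 53.2, 56.8, 66.4 and 65.5 CPM after SNI. All 4 ranges overlapped. Lgals3bp was the fourth member at an unadjusted p under 0.05, and BALB/c sham 56 was the highest of its group in all 4. It had 46.7 CPM of Ifit1 against 7.27 to 21.2 CPM in the other sham libraries, and 64.5 CPM of Eif2ak2 against 50.9 to 53.9 CPM. For Oasl2 it had 32.6 CPM against 13.7 to 21.9 CPM, and for Lgals3bp 47.2 against 29.1 to 35.5 CPM. A high BALB/c sham value raises this difference, and the differences without sham 56 are not given.

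In sham mice, 12 of 35 members were higher in B10.D2 than in BALB/c and none was lower. Of all features, 11.5% were called higher and 10% lower in this comparison. The 12 comprised 3 of the 4 sensors (Ifih1, Ddx58 and Zbp1), Ifit2 and Ifit3, Oas2 and Oasl2, Mx1, Irf9, Bst2, Parp14 and Rtp4. The median log2 difference was 0.22 over the members and -0.006 over all features, and 31 of 35 members had a positive value. Parp14 alone had no overlap between the groups, 1 of 35 beside 7.24% of all features.

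Ifit3, which binds Ifit1 and steadies its grip on viral RNA, had 5.49, 7.80 and 19.1 CPM as lowest, median and highest in BALB/c sham, and 19.9, 16.8, 28.7, 21.6 and 20.95 CPM in B10.D2 sham 58, 60, 67, 77 and 88. BALB/c sham 55, at 19.1 CPM, was the only one to reach the B10.D2 range, and the log2 difference was 1.29 ± 0.20 with an adjusted p of 5.98e-05. Bst2, which tethers budding virions to the cell surface, had 3.01, 5.26 and 8.34 CPM in BALB/c sham and 7.75, 8.80, 11.7, 11.1 and 9.15 CPM in B10.D2 sham, a log2 difference of 0.90 ± 0.20 with an adjusted p of 0.00168. BALB/c sham 56 alone reached the B10.D2 libraries. Oasl2 had 13.7, 18.9 and 32.6 CPM in BALB/c sham and 23.3, 28.9, 38.5, 31.6 and 28.8 CPM in B10.D2 sham, with a log2 difference of 0.64 ± 0.15 and an adjusted p of 0.00318. Here too BALB/c sham 56 was the one library inside the other strain's range.

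Zbp1, Mx1 and Oas2 had low counts, and 1 B10.D2 library stood apart from the rest of its group for Mx1. Mx1, a GTPase that traps viral nucleocapsids, had 0.677, 1.79 and 3.74 CPM as lowest, median and highest in BALB/c sham and 2.28, 2.11, 7.17, 2.50 and 2.41 CPM in B10.D2 sham, a log2 difference of 0.91 ± 0.27 with an adjusted p of 0.0174. Zbp1 had 0.226, 0.495 and 1.13 CPM in BALB/c sham and 0.906, 0.754, 2.34, 1.60 and 1.16 CPM in B10.D2 sham, a log2 difference of 1.25 ± 0.37 with an adjusted p of 0.0176. Oas2 had 0.802, 1.32 and 2.85 CPM in BALB/c sham and 1.90, 2.32, 4.27, 3.54 and 1.59 CPM in B10.D2 sham, a log2 difference of 0.86 ± 0.26 with an adjusted p of 0.0183. All 3 were highest in B10.D2 sham 67, and all 3 overlapped between the strains. Without B10.D2 sham 67 the calls of Zbp1 (adjusted p 0.0771), Mx1 (0.146), Oas2 (0.0804), Irf9 and Ifih1 were lost and 7 members remained called. The log2 difference of Mx1 was 0.58 without that library. Irf9 also lost its call without BALB/c sham 51 or B10.D2 sham 88, and Ifih1 without BALB/c sham 51, 57 or 71, B10.D2 sham 77 or 88 or BALB/c SNI 64 or 65, with adjusted p-values of up to 0.0956 and 0.128.

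After SNI, 20 of 35 members were higher in B10.D2 than in BALB/c and none was lower, beside 10.9% of all features called higher and 9.98% called lower. All 4 sensors, 3 of the 4 IFIT and IFITM genes, 3 of the 5 of the OAS family and PKR, and 4 of the 6 GTPases were among them, and none of the 3 genes of ISG15 conjugation was. The libraries compared are those of the injured groups of both surgery comparisons above. The median log2 difference was 0.44 over the members and -0.007 over all features. In 17 members every B10.D2 SNI library was above every BALB/c SNI library, which held for 9.41% of all features. Of the 12 members called in sham, 11 were also called after SNI, which is 91.7% of the sham list and 55% of the SNI list. The exception was Oas2, at 0.73 ± 0.28 with an adjusted p of 0.069. The 9 members called after SNI alone were Dhx58, Eif2ak2, Irf7, Gbp2, Gbp3, Gbp7, Lgals3bp, Ifit1 and Oas1a, and the interaction test above called none of them. The 20 became 10 without B10.D2 SNI 69 and 90, the libraries of that group with the highest means over the members, so that a lower count follows in part from the choice. That fit also holds fewer libraries than the sham comparison, and its count cannot be set against the 12 in sham.

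The 6 called members that differed by at least 2-fold after SNI were Ifit3, Ifit1, Bst2, Zbp1, Oasl2 and Mx1. Ifit3 had 7.52, 9.50, 11.6 and 9.84 CPM in BALB/c SNI 49, 64, 65 and 70 and 41.2, 27.2, 30.9, 29.1 and 35.3 CPM in B10.D2 SNI 69, 76, 78, 89 and 90, a log2 difference of 1.74 ± 0.23 with an adjusted p of 8.26e-06. The lowest B10.D2 library was more than 2-fold above the highest BALB/c library. Ifit1, which recognises viral RNA lacking the host's cap methylation, had 9.73, 11.1, 12.0 and 13.3 CPM in BALB/c SNI and 33.6, 24.5, 32.8, 31.6 and 34.0 CPM in B10.D2 SNI, a log2 difference of 1.40 ± 0.33 with an adjusted p of 0.00391. In sham its log2 difference had been 0.43 ± 0.29, not called, with BALB/c sham 56 above all B10.D2 sham libraries.

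Oasl2 had 17.7, 17.4, 18.7 and 18.2 CPM in BALB/c SNI and 45.4, 33.2, 38.0, 38.5 and 46.2 CPM in B10.D2 SNI, a log2 difference of 1.14 ± 0.17 with an adjusted p of 3.05e-05. Bst2 had 5.12, 5.44, 6.04 and 6.47 CPM in BALB/c SNI and 18.8, 11.4, 10.2, 13.9 and 19.9 CPM in B10.D2 SNI, a log2 difference of 1.35 ± 0.22 with an adjusted p of 9.13e-05. In neither gene did the strains overlap, and the BALB/c libraries were close together in both. Mx1 had 1.98, 3.16, 3.27 and 1.99 CPM in BALB/c SNI and 7.59, 4.44, 7.37, 3.29 and 5.68 CPM in B10.D2 SNI, with a log2 difference of 1.07 ± 0.29 and an adjusted p of 0.0108. Zbp1 had 0.973, 0.777, 1.32 and 0.907 CPM in BALB/c SNI and 3.94, 1.58, 1.53, 1.42 and 3.53 CPM in B10.D2 SNI, with a log2 difference of 1.24 ± 0.38 and an adjusted p of 0.0239. Both were free of overlap, but the lowest B10.D2 value was close to the highest BALB/c value.

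Leaving out 1 library at a time gave 15 to 22 called members after SNI, with 15 without BALB/c SNI 64 or B10.D2 SNI 90. Of the 6 members above, Zbp1 alone lost its call, without BALB/c SNI 64, B10.D2 SNI 69 or B10.D2 SNI 90 (adjusted p up to 0.106). Among the other called members, Irf7 and Gbp3 lost theirs without B10.D2 SNI 69 or 90 or BALB/c SNI 49, 64 or 65, and Irf7 also without BALB/c SNI 70, while Eif2ak2 and Gbp7 did so without BALB/c SNI 49 or 64 or B10.D2 SNI 90, and Eif2ak2 also without B10.D2 SNI 89. Without B10.D2 SNI 69 and 90 together 10 members were called: Ifit1, Ifit2, Ifit3, Bst2, Oasl2, Ddx58, Dhx58, Lgals3bp, Parp14 and Rtp4. In the sham comparison 3 of 10 macrophage markers were higher in B10.D2 (Adgre1, Aif1 and Cx3cr1), and after SNI Adgre1 and Aif1 were. Of 5 NK cell markers, Klrk1 alone was called, higher in B10.D2 by 1.54 ± 0.26 in sham and 1.56 ± 0.28 after SNI, and the median over the 5 was 0.62 and 0.09. Of 7 lymphocyte markers 3 were higher in B10.D2 in sham, and 1 was higher and 2 were lower after SNI. Neutrophil markers were lower in B10.D2 for 2 of 5 in sham and 5 of 5 after SNI. Injury markers were called lower in B10.D2 for 0 of 14 in sham and 4 of 14 after SNI. The part of all these markers in the members' differences was not tested. The authors aligned both strains to mm10, the genome of C57BL/6J, to which B10.D2 with its C57BL/10 background is nearer than BALB/c, and the effect of strain variants on counting, also among paralogs such as Ifit3 and Ifit3b or Oas1a and its copies, was not tested.

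**Figure D3:**
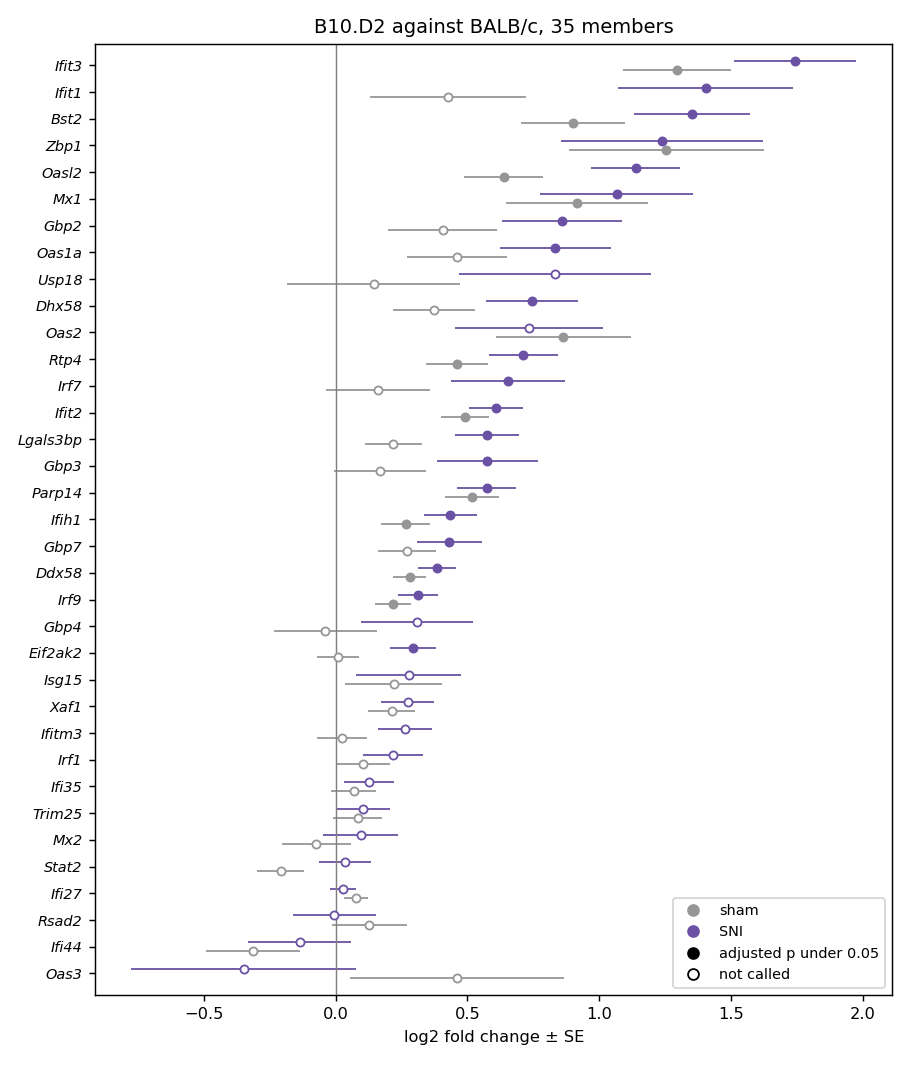
Log2 difference of B10.D2 from BALB/c with its standard error for each of the 35 members in sham (grey) and SNI (purple) libraries, with filled points where the adjusted p was under 0.05. Of the sham values 12 are filled and of the SNI values 20, all of them above 0, with Ifit3 highest at 1.29 and 1.74.

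**Figure D4:**
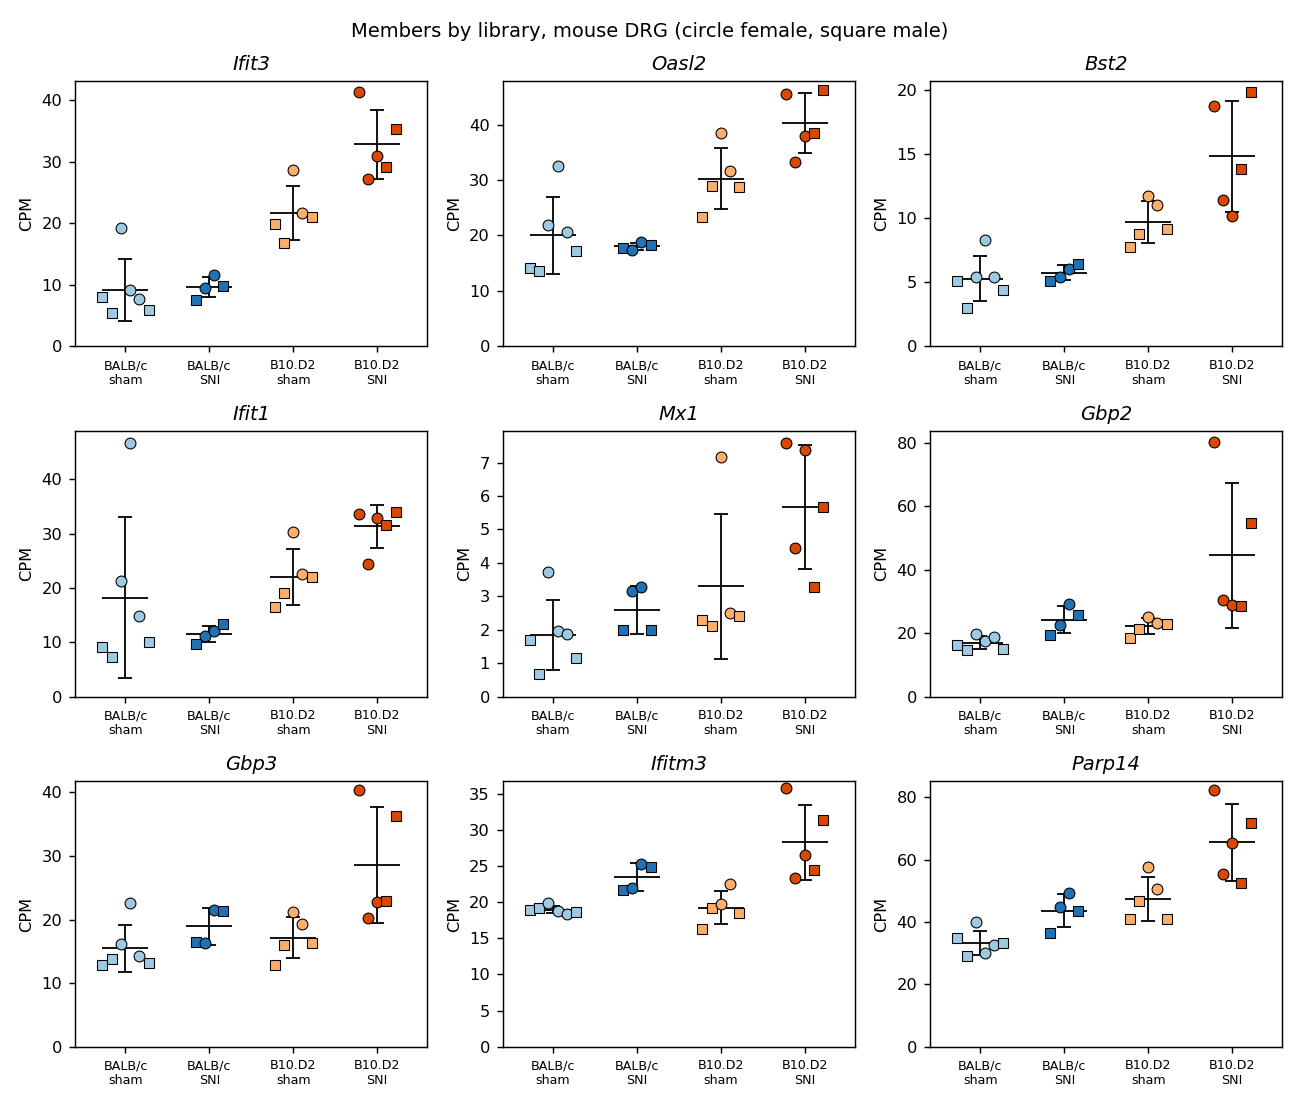
CPM of 9 members in each mouse library by group, with circles for females, squares for males and the bar showing the mean ± SD. Ifit3, Oasl2, Bst2 and Ifit1 separate the strains after SNI, and the spread of Gbp2 and Gbp3 in B10.D2 SNI comes from libraries 69 and 90.

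A set of 11 members was called in none of the 4 mouse comparisons of surgery or strain: Stat2, Oas3, Mx2, Gbp4, Isg15, Usp18, Trim25, Ifi27, Ifi35, Ifi44 and Rsad2. Isg15 had means of 2.63 ± 0.84 CPM (SD, n = 6) in BALB/c sham, 3.30 ± 0.39 (SD, n = 4) in BALB/c SNI, 2.98 ± 0.90 (SD, n = 5) in B10.D2 sham and 4.06 ± 0.86 (SD, n = 5) in B10.D2 SNI, with all groups overlapping. Ifi27, a mitochondrial protein, varied little, with group means of 121 to 131 CPM and single libraries from 115 to 140 CPM. Oas3 had the largest value in BALB/c after SNI, 1.04 ± 0.42, but an adjusted p of 0.133, with 3.99 CPM in SNI 49 and 1.08 to 1.81 CPM in the other 3 injured libraries. Usp18 had a strain difference after SNI of 0.83 ± 0.36 with an adjusted p of 0.118, although its groups did not overlap.

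Sex was a term of the mouse model, and 33 of 35 members had a lower value in males, with a median log2 difference of -0.19 against 0.002 over all features. No member was called by edgeR in either direction, while 13 (37.1%) had an unadjusted p under 0.05, against 11.7% of all features, and DESeq2 called 1, Mx1. Over all features 0.101% were called higher and 0.142% lower in males. The smallest p-values belonged to Mx1, Oas1a and Ifih1, with log2 differences of -0.86 ± 0.20 (adjusted p 0.0664), -0.47 ± 0.14 (0.174) and -0.22 ± 0.07 (0.189). Without B10.D2 sham 77, SNI 76 or SNI 90, 1 member was called. The mean over the members was 3.78 in female and 3.43 in male BALB/c sham, 4.04 and 3.75 in B10.D2 sham, 3.77 and 3.73 in BALB/c SNI, and 4.22 and 4.24 in B10.D2 SNI, so that males were lower in both sham groups, while the sexes were close after SNI. Whether the difference depends on surgery was not tested. Values were also lower in males for all 10 macrophage markers (median -0.23, with 4 at an unadjusted p under 0.05), all 5 NK cell markers (median -0.49, with 3) and all 7 lymphocyte markers (median -0.38, with 1), none of them called. All 5 neutrophil markers were higher in males (median 0.63), with 0 called. Of 4 plasmacytoid dendritic cell markers 1 was called, lower in males, and 1 had a higher value. The part of all these markers in the members' values was not tested. Oas1a, which makes the second messenger that activates RNase L, had 1.79 to 3.21 CPM in female and 1.10 to 1.73 CPM in male BALB/c sham, and 2.79 to 3.48 CPM in female and 2.16 to 2.58 CPM in male B10.D2 sham. After SNI females had 2.08 to 2.26 CPM and males 1.33 to 1.84 CPM in BALB/c, and 2.73 to 4.13 CPM and 2.65 to 3.98 CPM in B10.D2, where alone the sexes overlapped.

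Other genes of the pathway were read from lists of ligands, receptors, kinases, inducers, inhibitors and further ISGs. None of the 21 interferon genes listed passed the filter on low counts in mouse, nor did any of the 10 with a row in rat, and their summed level was at most 0.233 CPM in a mouse and 0.641 CPM in a rat library, where 3 counts are 0.0716 to 0.1 CPM and 0.168 to 0.251 CPM. Of 6 receptor chains, Ifnar2 (0.24 ± 0.05, adjusted p 0.0032) and Il10rb (0.14 ± 0.04, 0.0227) rose after SNI in BALB/c, and Il10rb rose in B10.D2 (0.14 ± 0.04, 0.0311). Ifnar1, the signalling chain of the type I receptor, was higher in B10.D2 than in BALB/c by 0.16 ± 0.04 in sham and 0.14 ± 0.05 after SNI. Ifnlr1, the chain specific for type III interferon, had log2 differences of -1.62 ± 0.21 in sham and -1.66 ± 0.24 after SNI, lower in B10.D2 with no overlap in either.

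Among 14 genes of interferon induction, Irf8 rose in BALB/c after SNI by 0.60 ± 0.17, none was called in B10.D2, and the cytosolic DNA adaptor Tmem173 (STING), Irf5 and Irf3 were higher in B10.D2 sham than in BALB/c sham by 0.70 ± 0.15, 0.44 ± 0.13 and 0.20 ± 0.06. Of 9 inhibitors tested, Socs3, which blocks JAK kinases, rose in BALB/c by 0.62 ± 0.18. Trim30a and Nlrc5 were higher in B10.D2 by 1.18 ± 0.16 and 0.77 ± 0.20 in sham and by 1.01 ± 0.18 and 1.08 ± 0.22 after SNI. Of 38 further ISGs outside the members, 2 rose in BALB/c (Igtp by 0.70 ± 0.16 and Parp9 by 0.39 ± 0.10) and 10 in B10.D2. Beside them stand 4.82% and 2.1% of all features called higher. The 10 included the chemokine Cxcl10, which rose by 1.80 ± 0.36 from 1.18 to 4.11 CPM, and the interferon-gamma-inducible GTPases Tgtp1, Iigp1, Gbp5, Irgm1 and Igtp, which rose by 1.06, 0.98, 0.81, 0.71 and 0.66. None of the 38 was without overlap between B10.D2 sham and SNI. Their summed level was 401.6 to 532 CPM in B10.D2 sham. After SNI it was 740.8 and 679.7 CPM in libraries 69 and 90 and 495.1 to 558 CPM in the others. Calls with libraries left out are not given for these genes. Between the strains 16 of the 38 were higher in B10.D2 in sham and 23 after SNI, beside 11.5% and 10.9% of all features. Gbp6 led at 1.97 ± 0.24 and 2.49 ± 0.27. Ifi44l and Tor3a were lower in both, Ifi44l at -4.34 ± 0.34 and -4.44 ± 0.34 with B10.D2 means of 0.0845 and 0.0945 CPM, near the floor of 3 counts.

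The authors' catalogue of LncRNAs assembled from these reads held 12 that overlapped a member or lay within 10 kb of one, of which 8 were tested and 4 were called in at least 1 of the 4 surgery and strain comparisons. Of all features, 11.5% were called higher and 10% lower in B10.D2 in sham, and 10.9% and 9.98% after SNI. By surgery, 2.1% were called higher and 2.48% lower in B10.D2, and 4.82% and 4.87% in BALB/c. The share of all features called in at least 1 of the 4 was not computed, so the 4 of 8 are not read as particular to these LncRNAs. LncRNA1337 lay on the opposite strand over Usp18 (chr6:121258407-121269559, mm10). Its mean level on library totals was 5.44 ± 0.79 CPM (SD, n = 6) in BALB/c sham, 6.51 ± 0.94 (SD, n = 4) in BALB/c SNI, 7.61 ± 0.71 (SD, n = 5) in B10.D2 sham and 10.2 ± 1.24 (SD, n = 5) in B10.D2 SNI. It rose in B10.D2 by 0.35 ± 0.09 (adjusted p 0.0313) and was higher in B10.D2 by 0.52 ± 0.09 in sham and 0.65 ± 0.10 after SNI, while Usp18 itself was not called. LncRNA6272, opposite to Trim25 (chr11:88945595-89033287), rose in B10.D2 by 0.69 ± 0.15 (adjusted p 0.00797), and Trim25 had 0.15 ± 0.10 there. LncRNA7619 (chr19:34584854-34610279) runs on the strand of Ifit3 and overlaps it, so their reads cannot be told apart fully, and it was higher in B10.D2 by 1.18 ± 0.22 in sham and 1.23 ± 0.24 after SNI. LncRNA822, 7410 bases from Isg15 (chr4:156208228-156211035), was higher in B10.D2 by 0.67 ± 0.12 and 0.48 ± 0.14, where Isg15 had 0.22 ± 0.18 and 0.28 ± 0.20.

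In the rat L5 DRG, 18 of the 32 members with a row were tested, and 5 rose and 1 fell after SNT, beside 12.3% of 13690 features called higher and 15.1% called lower. Zbp1, Gbp2, Gbp4, Ifitm3 and Irf7 rose, and Ifi27 fell. An unadjusted p under 0.05 by edgeR was held by 9 of the 18 (50%), against 42.5% of all features. By this count the members were near the background of this comparison. The median log2 fold change was 0.45 over the 18 members and 0.003 over all features, and 15 of 18 were positive. Gbp2, Gbp4 and Ifitm3 had no overlap between groups, 3 of 18 beside 12.2% of all features. Oas3, Gbp7 and Bst2 had no row, and Irf1, Irf9, Dhx58, Oas1a, Oas2, Oasl2, Mx1, Mx2, Trim25, Ifi35, Xaf1, Parp14, Rtp4 and Lgals3bp were listed at 0 in every rat library.

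Gbp2 had 106, 57.5, 80.0 and 164 CPM in rat sham 1 to 4 and 170, 262, 238 and 213 CPM in rat SNT 1 to 4, a log2 fold change of 1.11 ± 0.28 with an adjusted p of 0.0204. Sham 4 came close to SNT 1, and the others were well apart. Gbp4 had 7.71, 5.31, 5.63 and 9.90 CPM in sham and 12.3, 15.1, 13.7 and 13.3 CPM after SNT, a log2 fold change of 0.93 ± 0.20 with an adjusted p of 0.014. Ifitm3 had 49.3, 32.3, 46.1 and 53.7 CPM in sham and 62.1, 103, 93.8 and 69.02 CPM after SNT, a log2 fold change of 0.85 ± 0.20 with an adjusted p of 0.0151. In both genes the lowest SNT library was SNT 1.

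Irf7, which amplifies the production of type I interferon, had 20.7, 18.9, 16.7 and 25.7 CPM in sham and 24.7, 46.3, 38.5 and 32.1 CPM after SNT, a log2 fold change of 0.79 ± 0.20 with an adjusted p of 0.0206. Zbp1 had 1.24, 1.04, 1.07 and 2.54 CPM in sham and 1.83, 6.21, 4.78 and 2.82 CPM after SNT, a log2 fold change of 1.41 ± 0.43 with an adjusted p of 0.036. SNT 1 was below sham 4 in both. Ifi27 had 783, 649, 572 and 495 CPM in sham and 537, 308, 307 and 374 CPM after SNT, and fell by 0.71 on the log2 scale, with a standard error of 0.21 and an adjusted p of 0.0318. Sham 4 again lay inside the SNT range. Members not called included Usp18 at 0.70 ± 0.25 (adjusted p 0.0614), Ifih1 at 0.43 ± 0.15 (0.0551), Ifit3 at 0.82 ± 0.40 (0.148) and Rsad2 at -0.34 ± 0.21 (0.252).

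**Figure D5:**
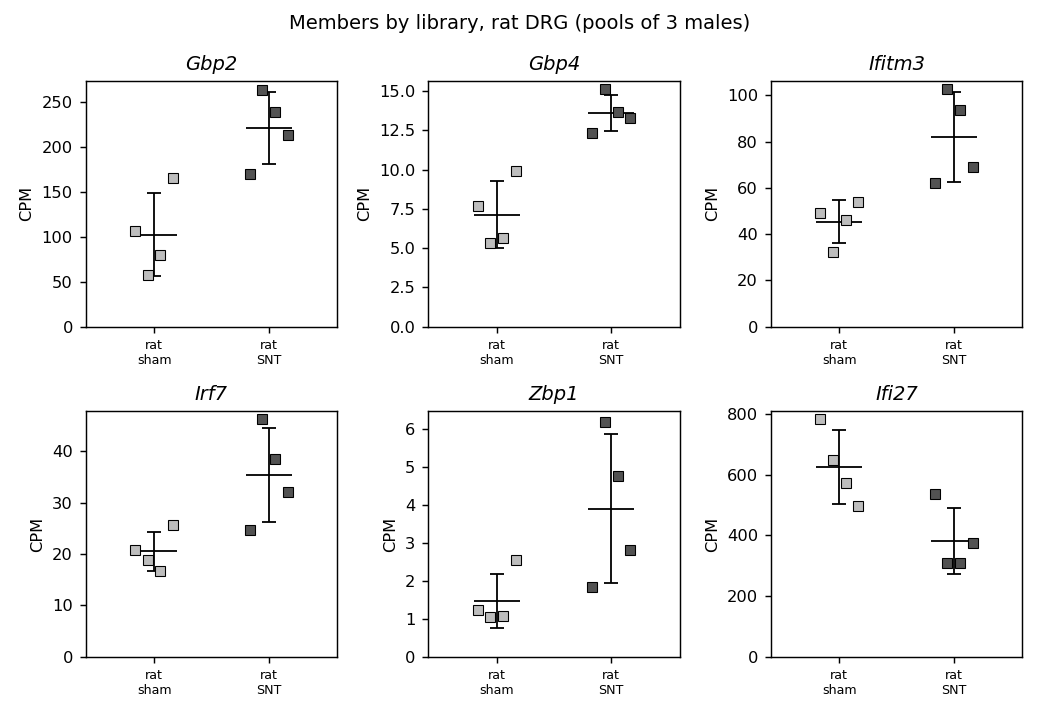
CPM of the 6 called members in each rat library, every one a pool of 3 males, with the bar showing the mean ± SD. Gbp2, Gbp4 and Ifitm3 are without overlap between sham and SNT, whereas sham 4 reaches the SNT range for Irf7, Zbp1 and Ifi27.

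The number of called rat members was 2 without sham 1 or sham 3, 3 without sham 2, SNT 2 or SNT 3, and 11 without SNT 1, and 12 without sham 4 and SNT 1 together. Gbp4 and Ifitm3 stayed called whichever library was left out, at adjusted p-values of at most 0.0465 and 0.0473. With a block for the number that 1 sham and 1 SNT title share, Gbp4 kept its call and Ifitm3 lost it. Gbp2 lost its call without sham 1, sham 3 or SNT 2 (adjusted p up to 0.0641), Irf7 without sham 1, 2 or 3 or SNT 2 or 3 (up to 0.065), and Zbp1 and Ifi27 without any of these 5 or SNT 4 (up to 0.102 and 0.0927). In the wider pathway, the receptor chains Ifnlr1 (1.24 ± 0.25) and Ifngr1 (0.63 ± 0.13), Jak2 (0.74 ± 0.19) and Tyk2 (0.46 ± 0.12) rose after SNT, as did Tlr7 (1.18 ± 0.28), Irf5 (1.03 ± 0.23), Myd88 (0.62 ± 0.18), Gbp5 (1.01 ± 0.21) and Parp12 (0.50 ± 0.14). Tbk1 fell by 0.46 and Cmpk2 fell by 0.98. Macrophage markers summed to 398.5 to 1695 CPM in sham, with sham 4 highest, and to 1495 to 2149 CPM after SNT, and 1 of 6 tested was called (Cx3cr1, 1.35 ± 0.24). Of 4 lymphocyte markers tested, 2 were called, Cd3e and Cd4, which rose by 1.998 ± 0.39 and 1.27 ± 0.25. Cd3e had means of 0.405 CPM in sham and 1.67 CPM after SNT, and Cd4 had 47.3 and 114 CPM. Klrk1, the 1 NK cell marker tested, rose by 2.08 ± 0.38. The part of these markers and of the macrophage markers in the members' changes was not tested. Rat and mouse values came from different library types, ganglia, times and surgeries and were set side by side without a test. Gbp2 and Ifitm3 were called both in B10.D2 mice and in rats, at log2 fold changes of 0.96 and 0.54 in B10.D2 and 1.11 and 0.85 in rat.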

How the data were processed

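RNA counts of 20 mouse and 8 rat DRG libraries were used. The authors sequenced strand-specific (dUTP) libraries from both ends, mapped reads by STAR onto mm10 (GRCm38) or rn6 (Rnor_6.0), handled alignments with SAMtools and counted read pairs over annotated genes and their own assembled LncRNAs with HTSeq. Versions of these tools are not given in the sources used here. The deposited tables hold raw counts per feature, and all their values are whole and none is negative. Result tables that were also deposited, made by the authors with DESeq2, hold log2 fold changes, mean signal, Wald score and p-values, of which only the gene symbols were used. Symbols of members were unique in both tables.

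Groups came from the labels. Members and lists were chosen with earlier results of these data known. Features were tested with the edgeR 4.0.16 quasi-likelihood test (R 4.3.3) after TMM normalization and filterByExpr, with sex, strain, surgery and the strain by surgery interaction in mouse and surgery alone in rat. P-values were two-sided and were adjusted after Benjamini and Hochberg across every feature tested, and a gene is called at an adjusted p under 0.05. Each standard error is the size of the log2 fold change over the root of its F statistic. CPM are counts per M (mega) of the library total times its TMM factor, and levels of LncRNAs are on totals alone. The floor of 3 counts covers counting error only. In rat, the labels do not say how animals were assigned to pools. Members named with values in every library were at most 6 called members per comparison with the largest change and a mean of at least 1 CPM, or, with fewer than 3 called, the 3 with the smallest p. Gene positions came from GENCODE M21 on mm10, in which 5 members (Irf9, Gbp4, Gbp7, Parp14 and Rtp4) overlap another gene on their own strand and 9 one on the other, and promoters from RefSeq on GRCm38.p6. HTSeq leaves out pairs that fit several features, which lowers counts of overlapping genes and close paralogs. The fit was tested on simulated data. DESeq2 1.42.0, RLE size factors, other filters, no sex term, groups fitted alone and each library left out were alternatives. Females alone, males alone, B10.D2 SNI 69 and 90 left out and the alternatives for LncRNAs were chosen after seeing the data. Results of some listed genes are not reported here.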

Additional observations from a re-analysis of the deposited data

Results flagged for a closer look

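In 174 sets of a member and a group of 4 to 6 libraries, with a group mean of at least 1 CPM, 12 (6.9%) held 1 library farther from the rest than Dixon's limit, where chance gives about 1 in 20, and the mean over members did so in none of the 6 groups. BALB/c sham 56 accounted for 6 of them. It had 46.7 CPM of Ifit1 against 7.27 to 21.2 CPM in the other 5 libraries of its group, 64.5 CPM of Eif2ak2 against 50.9 to 53.9 CPM, and 22.6 CPM of Gbp3 against 12.9 to 16.2 CPM. It also had 134 CPM of Ifi27 against 115 to 122 CPM, 13.1 CPM of Xaf1 against 9.67 to 10.9 CPM and 47.2 CPM of Lgals3bp against 29.1 to 35.5 CPM. In the same group BALB/c sham 55 had 19.1 CPM of Ifit3 against 5.49 to 9.18 CPM. Without sham 56, 16 members were higher in B10.D2 sham than in BALB/c sham instead of 12.

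B10.D2 sham 67 had 7.17 CPM of Mx1 against 2.11 to 2.50 CPM in the other 4 libraries of its group. B10.D2 SNI 76, the injured mouse with the lowest level of injury markers, had 24.5 CPM of Ifit1 against 31.6 to 34.0 CPM. BALB/c SNI 65 had 6.64 CPM of Irf7 against 5.89 to 5.95 CPM. In rat, sham 4 had 2.54 CPM of Zbp1 against 1.04 to 1.24 CPM, and SNT 2 had 19.7 CPM of Rsad2 against 10.8 to 11.6 CPM. The cause of these values was not tested.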

How the results depend on the processing

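No named member's log2 value and no difference of the mean over members changed its sign under the alternatives run. The number of members called after SNI in BALB/c, 1 as reported, was 3 with DESeq2, 2 without the filter on low counts, 3 with the strain fitted alone, 0 in females alone and 0 in males alone, and 0 to 4 with 1 library left out. In B10.D2, 8 became 11 with DESeq2, 11 without the filter, 4 with the strain fitted alone, 0 in females alone, 1 in males alone, 1 without SNI 69 and 90, and 1 to 10 with 1 library left out. The 12 members higher in B10.D2 sham became 4 in females alone and 7 to 16 with 1 library left out, and the 20 after SNI became 9 in females alone, 12 in males alone and 10 without SNI 69 and 90. The 0 members called by sex became 1 with DESeq2, 1 without the filter and 0 to 1 with 1 library left out. The 6 rat members called became 12 without sham 4 and SNT 1, and 2 to 11 with 1 library left out. Taking the median over members in place of the mean gave a strain difference of 0.66 after SNI and a rat difference of 0.49, and the rat members of at least 1 CPM gave 0.39. Fits of 1 sex hold fewer libraries, and the cause of the other changes was not tested. With a replicate block of the number that 1 sham and 1 SNT rat title share, 3 members were called: Gbp2, Gbp4 and Ifi27. Same-numbered rat libraries did not deviate together (correlations of 0.0534, -0.226, -0.0801 and -0.0659), and none correlated best with its own number. Such correlations cannot show whether the numbers mark a batch or a pairing, and the labels do not say. The 4 LncRNAs beside members were 4 to 6 under the alternatives. Of the named members' values under alternatives, 1265 stayed on their side of the threshold, 183 lost the call and 16 gained it. At 3 counts the floor was 0.0716 to 0.1 CPM in mouse and 0.168 to 0.251 CPM in rat, so that the interferon genes themselves were near or below what this depth can show.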
